A study of Mus musculus with 8 samples.

Results

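The miRNAs encoded inside the mouse Hox gene clusters were examined in exosomes from amniotic fluid. The set holds 7 mature miRNAs chosen by name, of 1881 mouse miRNAs on the array, namely miR-10a-5p, miR-10b-5p, miR-10a-3p, miR-10b-3p, miR-196a-5p, miR-196b-5p and miR-615-3p. All 7 were present on the array, 4 of them were measured above background on all 8 arrays, and 3 on no array. The LPS group (n = 4) consists of fluid from pregnant mice injected into the abdomen with lipopolysaccharide (LPS, a bacterial cell wall component) on day 14, at 100 μg per kg of body weight. It was taken at the onset of preterm birth, about 48 h later. The control group (n = 4) consists of fluid taken at cesarean section, and the labels leave unsaid whether those mice were injected. All 8 samples are labelled day 17 of pregnancy, which does not match the timing given for the LPS mice, and the gestational age of each group was not settled. The labels name neither a mouse strain nor whether each sample is 1 animal, and p-values therefore measure only the spread between these samples. Vesicle RNA was read as a whole, so fewer vesicles from a source and fewer copies per vesicle cannot be told apart.

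Hox genes code for transcription factors that give cells their position along the body axis, and their order on the chromosome follows the body region in which they act. The miRNAs miR-10, miR-196 and miR-615 lie among these genes, are expressed in similar regional patterns, and miR-196 directs cleavage of Hoxb8 mRNA in the mouse embryo. A miRNA recognises its targets mainly through its seed, bases 2 to 8, so miRNAs with the same seed can pair with largely the same messages.

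The mature sequences show why the members have to be read in pairs. They are given 5′ to 3′ with the seed in capitals, from RefSeq (GRCm38.p6), in which all 7 names were found.
mmu-miR-196a-5p: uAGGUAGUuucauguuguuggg
mmu-miR-196b-5p: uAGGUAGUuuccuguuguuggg
mmu-miR-10a-5p: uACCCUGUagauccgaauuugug
mmu-miR-10b-5p: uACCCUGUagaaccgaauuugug
mmu-miR-10a-3p: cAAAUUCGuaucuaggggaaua
mmu-miR-10b-3p: cAGAUUCGauucuaggggaaua
mmu-miR-615-3p: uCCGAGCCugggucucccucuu
The miR-196 pair shares the seed AGGUAGU and differs at 1 of 22 bases, A12C from miR-196a-5p to miR-196b-5p, counted from the 5′ end. The 5p pair of miR-10 shares the seed ACCCUGU and differs at 1 of 23 bases, U12A from miR-10a-5p to miR-10b-5p. The 3p arms of miR-10 differ at 3 of 22 bases, of which A3G lies in the seed, so that these arms do not share a seed.

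The loci lie in 4 different Hox clusters. By the gene table for GRCm38.p6, Mir10a lies within the span of Hoxb3 and next to Hoxb4, and Mir10b lies within the spans of Hoxd3 and Hoxd4. Mir196b lies between Hoxa9 and Hoxa10, and Mir615 lies within Hoxc5. The miRNA miR-196a-5p has 2 source genes, Mir196a-1 between Hoxb13 and Hoxb9 and Mir196a-2 between Hoxc10 and Hoxc9. Their hairpins are shown because both yield the same 5p arm, in capitals, while the rest differs.
Mir196a-1: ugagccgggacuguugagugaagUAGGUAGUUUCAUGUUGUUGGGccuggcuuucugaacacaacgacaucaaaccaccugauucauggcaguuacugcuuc
Mir196a-2: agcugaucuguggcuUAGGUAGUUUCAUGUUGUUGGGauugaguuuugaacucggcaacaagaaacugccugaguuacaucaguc
On the genome build of the files, mm9, the longest miR-196a-5p probe is therefore listed at chr11:96126501-96126522 and at chr15:102803796-102803817, and the array does not tell the 2 genes apart. The brighter probe of miR-196b-5p is listed at chr6:52180098-52180116 on the minus strand, that of miR-10a-5p at chr11:96178503-96178522 and that of miR-10b-5p at chr2:74564134-74564153. In these last 3 the listed span is 1 base shorter than the probe. The miR-615-3p probes are listed as unmapped.

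The probes of each pair cover the base that sets its members apart. The longest probes are shown 5′ to 3′ with the base that faces position 12 of the miRNA in capitals.
miR-196a-5p probe: cccaacaacaTgaaactaccta
miR-196b-5p probe: cccaacaacaGgaaactacc
miR-10a-5p probe: cacaaattcggAtctacaggg
miR-10b-5p probe: cacaaattcggTtctacaggg
Each of the 4 miR-196a-5p probes (19 to 22 bases) has 1 mismatch to miR-196b-5p, and each of the 2 miR-196b-5p probes has 1 mismatch to miR-196a-5p. The same holds between the 2 probes of miR-10a-5p and the 2 of miR-10b-5p. The mismatch lies inside the probe, at base 11 or 12 from its 5′ end. How much of the other member's RNA a probe with 1 mismatch binds was not measured.

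A single slide, scanned in a day, held all arrays. Its rows were each filled by 1 group, and slide row and group cannot be told apart. The LPS arrays detected 403 to 517 miRNAs and the cesarean arrays 412 to 551. The 75th percentile signal ran from 7.72 to 8.67 (log2) on LPS and from 7.74 to 8.81 on cesarean arrays (two-sided exact permutation test, p = 0.743). Signals below are log2 values after scaling each array to that percentile, with a floor of 3.75. They compare a probe between arrays and do not rank different miRNAs by abundance.

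The miR-196 pair split. On LPS arrays miR-196a-5p fell, while its 1-base relative miR-196b-5p stayed within the spread between arrays. The level of miR-196a-5p was 5.81, 5.74, 6.24 and 5.62 on cesarean replicates 1 to 4, and 4.76, 4.50, 4.90 and 4.32 on LPS replicates 1 to 4. Every LPS array lay below every cesarean array, with a gap of 0.71 between the groups. The means were 4.62 ± 0.26 with LPS and 5.85 ± 0.27 at cesarean (SD, n = 4 each). The log2 difference was -1.23 ± 0.24 (SE; 95% interval -1.76 to -0.70) or 2.35-fold lower (limma with Benjamini-Hochberg adjustment over 470 tested miRNAs, adjusted p = 0.0266). Among the tested miRNAs it ranked 7 by p and 16 from the lowest difference. Each column of the slide held 1 array of each group, and the differences within columns 1 to 4 were -1.05, -1.24, -1.33 and -1.30. With the column as a block in limma the call did not hold (adjusted p = 0.125).

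The level of miR-196b-5p was 6.29, 7.001, 6.20 and 6.64 on cesarean replicates 1 to 4, and 6.19, 7.02, 6.80 and 6.70 on LPS replicates 1 to 4. The groups overlapped over nearly their whole range, and both the lowest and the highest array were LPS arrays. The log2 difference was 0.15 ± 0.27 (SE; 95% interval -0.46 to 0.75, limma adjusted p = 0.785). It ranged from 0.03 without LPS replicate 2 to 0.31 without LPS replicate 1, and was 0.04 without cesarean replicate 3, 0.07 without cesarean replicate 1, 0.30 without cesarean replicate 2 and 0.0007 without scaling. The interval over all arrays leaves room for a fold between 0.728 and 1.68, LPS over cesarean, and does not reach the fall seen for miR-196a-5p.

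**Figure D1:**
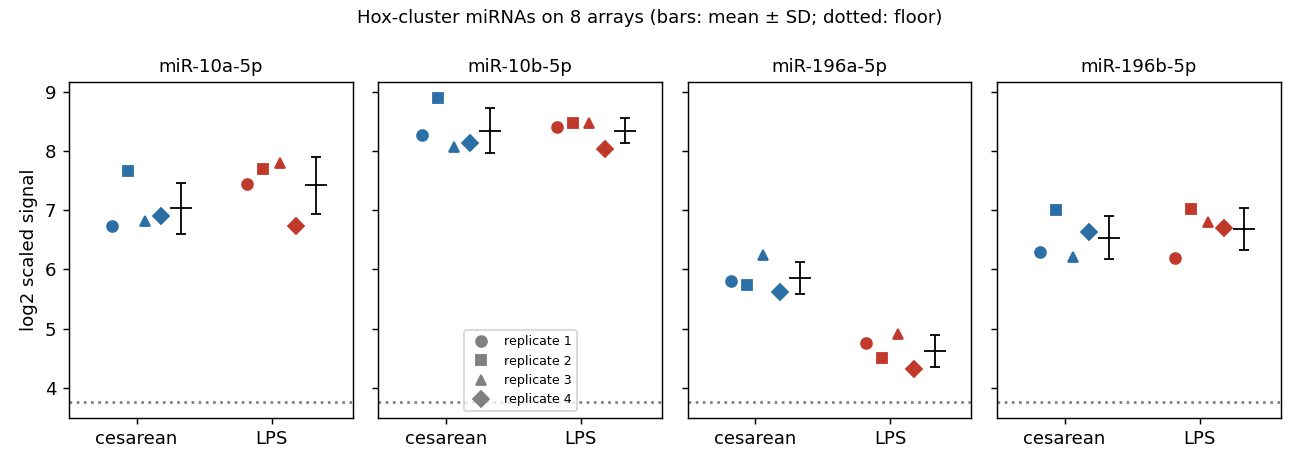
Log2 scaled signal (y axis) of the 4 measured Hox-cluster miRNAs on each of the 4 cesarean arrays (blue) and 4 LPS arrays (red), with 1 symbol per replicate number, which is also the array's column on the slide. Bars give the mean ± SD of each group and the dotted line the floor of 3.75. The miR-196a-5p arrays separate by group, and those of the other 3 miRNAs overlap.

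The difference between the 2 miR-196 members was tested on each array, where scaling between arrays cancels. The value of miR-196a-5p minus that of miR-196b-5p was -0.47, -1.26, 0.03 and -1.02 on cesarean replicates 1 to 4, and -1.43, -2.52, -1.89 and -2.39 on LPS replicates 1 to 4. All 4 LPS arrays lay below all 4 cesarean arrays, although LPS replicate 1 and cesarean replicate 2 were close. The group means were -2.06 ± 0.50 and -0.68 ± 0.58 (SD, n = 4 each), so the balance between the pair shifted by -1.38 on the log2 scale, or 2.60-fold (two-sided exact permutation test, p = 0.0286, adjusted p = 0.0429 over 3 pairs). This is the smallest p that 4 against 4 arrays can give. The balance of miR-196a-5p against miR-10b-5p also shifted, from -2.49 ± 0.54 to -3.72 ± 0.17 (SD, n = 4 each; exact permutation p = 0.0286, adjusted p = 0.0429). Both shifts read the same miR-196a-5p values and are not independent of each other or of the fall above. Over 3 pairs the smallest p passes the adjustment only if at least 2 pairs reach it, so each pass rests on the other. With 1 array left out the smallest p is 0.0571, so no call can remain there. Neither shift passed with normexp background correction or with the scanner software's total. The first was -1.05 with a normexp offset of 1, -0.52 with an offset of 50 and -0.73 with the total, and the second was -0.91, -0.40 and -0.58. At offset 1 the adjusted p was 0.0857 for each (exact permutation test over 3 pairs).

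**Figure D2:**
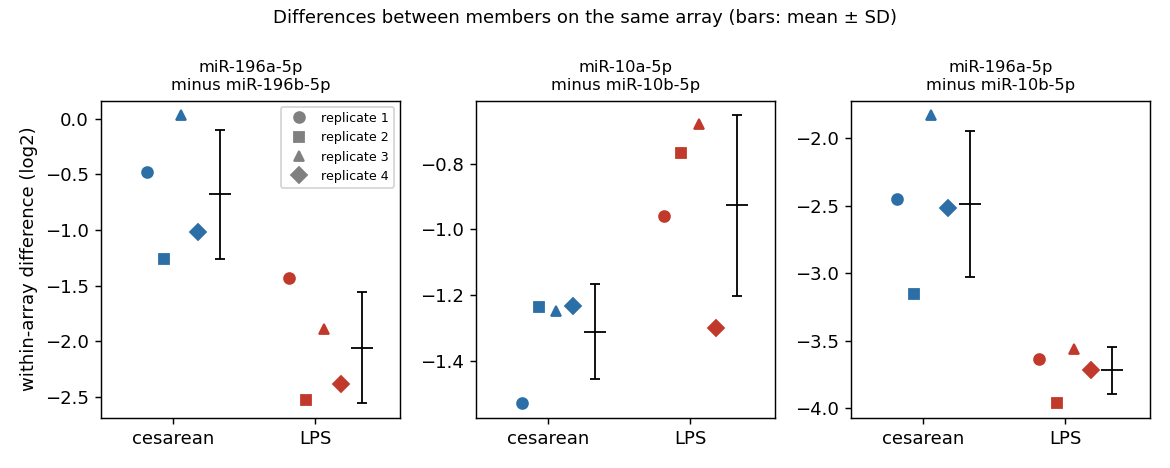
Difference between 2 members on the same array in log2 units (y axis, a separate scale in each panel) for the 3 pairs tested, on 4 cesarean (blue) and 4 LPS arrays (red), with mean ± SD. The groups separate in both panels with miR-196a-5p and overlap for miR-10a-5p minus miR-10b-5p.

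The groups did not overlap for any of the 4 probes of miR-196a-5p. The log2 differences were -1.35 and -1.23 for the probes of 21 and 22 bases, which were above background on all arrays. For the probe of 20 bases, with 1 LPS array at the floor, the difference was -1.43. For the shortest probe all 4 LPS arrays lay at the floor, so that its value of -0.77 is only a bound and gives no size. The probes bind the same RNA in the same samples and are no replicates of the groups. The 2 probes of miR-196b-5p, of 19 and 20 bases, gave 0.27 and 0.15.

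**Figure D3:**
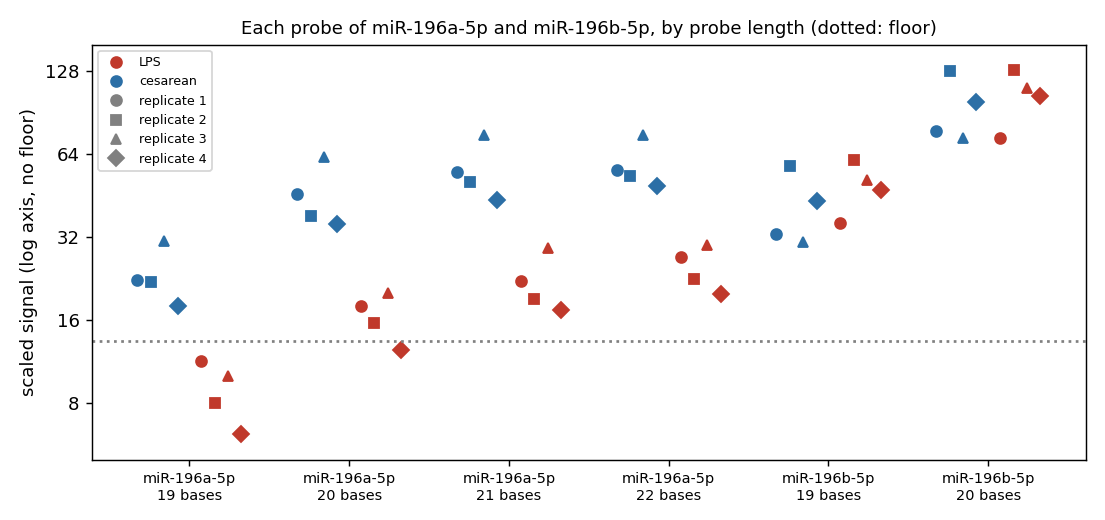
Scaled signal without a floor (y axis, log scale) of each probe of miR-196a-5p and miR-196b-5p, ordered by probe length (x axis), on 4 cesarean (blue) and 4 LPS arrays (red). The LPS arrays lie below the cesarean arrays for all 4 miR-196a-5p probes and overlap them for both miR-196b-5p probes, and the dotted line marks the floor.

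On LPS arrays miR-196a-5p was dim. The longest probe had 7 kept spots per array, of which 26 of 28 were well above background over the LPS arrays and 28 of 28 over the cesarean arrays. For the shortest probe these counts were 6 of 26 and 28 of 30. The SD between spots of the longest probe on 1 array ran from 0.07 to 0.36 (log2), against 0.05 to 0.16 for the 14 or 15 spots of miR-196b-5p. Over both groups, 183 of 224 miR-196a-5p spots and 237 of 237 miR-196b-5p spots were well above background.

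The call of miR-196a-5p did not hold in all settings. Its direction did, but leaving out 1 array, changing the filter or blocking slide columns could not have reversed it. The adjusted p was 0.0702, 0.0577 and 0.0729 without cesarean replicates 1, 2 and 3 and 0.0760 without LPS replicate 2, at differences between -1.27 and -1.10. It was 0.253 without scaling (difference -1.38), 0.222 when scaled to the spike-in probes (-1.37), 0.0642 when scaled over all probes (-1.13) and 0.139 with no filter on dim miRNAs (-1.23). Normexp background correction with an offset of 50 gave -0.41 (adjusted p = 0.259) and, with an offset of 1, -0.91 (adjusted p = 0.0332). The authors' deposited value table gave -1.38 (limma adjusted p = 0.0402). The scanner software's own total per miRNA gave -0.54 (adjusted p = 0.478). That total, scaled, was 28.3, 23.4, 31.1 and 20.7 on cesarean replicates 1 to 4 and 10.2, 29.3, 12.8 and 24.6 on LPS replicates 1 to 4, so that LPS replicates 2 and 4 lay among the cesarean arrays, where none of the 4 probes placed them.

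**Figure D4:**
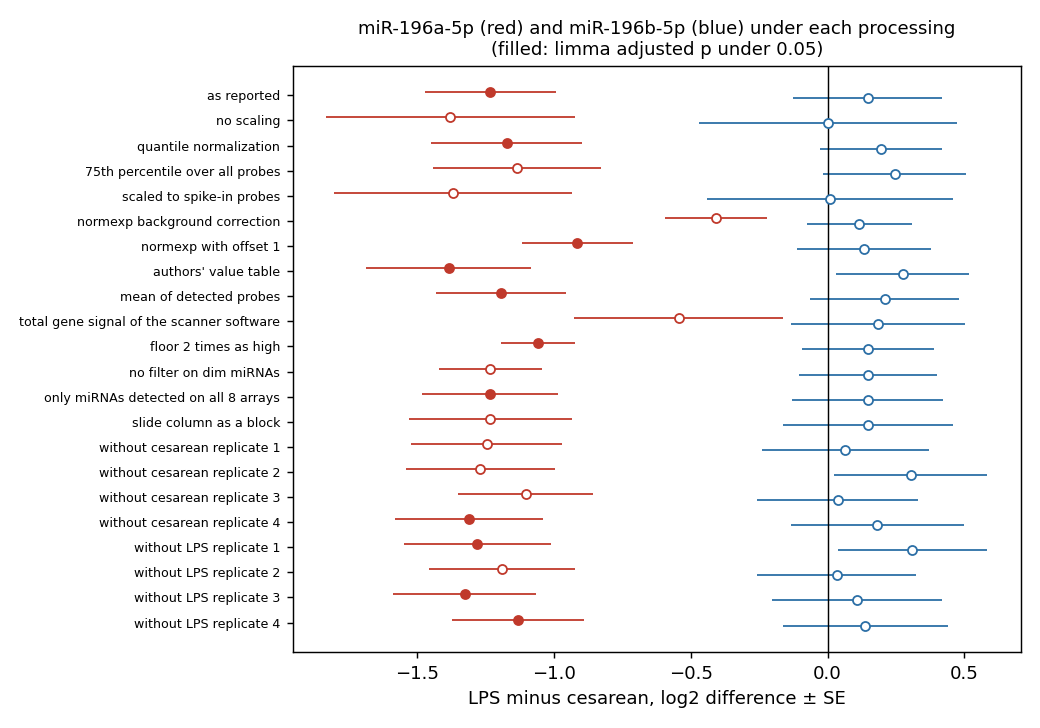
Log2 difference, LPS minus cesarean (x axis, ± SE), of miR-196a-5p (red) and miR-196b-5p (blue) under each processing (y axis), with filled points where the limma adjusted p was under 0.05. All miR-196a-5p points lie below 0, from -1.38 to -0.41, and no miR-196b-5p point is filled.

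The miR-10 pair did not differ between the groups beyond the spread between arrays. The level of miR-10b-5p was 8.26, 8.90, 8.07 and 8.14 on cesarean replicates 1 to 4, and 8.40, 8.46, 8.47 and 8.04 on LPS replicates 1 to 4. The groups lay on top of one another, with means of 8.34 ± 0.38 and 8.34 ± 0.20 (SD, n = 4 each). The log2 difference of miR-10b-5p was 0.0007 ± 0.25 (SE; 95% interval -0.56 to 0.56, limma adjusted p = 0.998). Its sign differs between processing settings, for example -0.15 without scaling.

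The level of miR-10a-5p was 6.73, 7.66, 6.82 and 6.90 on cesarean replicates 1 to 4, and 7.44, 7.69, 7.79 and 6.74 on LPS replicates 1 to 4. LPS replicates 2 and 3 lay above every cesarean array, and LPS replicate 4 lay at the low end beside cesarean replicate 1. The log2 difference was 0.39 ± 0.31 (SE; 95% interval -0.31 to 1.08, limma adjusted p = 0.466), and its 2 probes gave 0.39 and 0.56. It ranged from 0.26 to 0.61 with 1 array left out, with 0.61 without LPS replicate 4 and 0.60 without cesarean replicate 2, and did not pass in any of these. The difference of miR-10a-5p minus miR-10b-5p was -1.53, -1.24, -1.25 and -1.23 on cesarean replicates 1 to 4 and -0.96, -0.77, -0.68 and -1.30 on LPS replicates 1 to 4. Of the LPS arrays, 3 lay above all cesarean arrays and replicate 4 lay among them. The shift of 0.38 did not pass (two-sided exact permutation test, p = 0.114, adjusted p = 0.114 over 3 pairs).

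Within the groups, miR-10a-5p, miR-10b-5p and miR-196b-5p were each highest on cesarean replicate 2 of the cesarean arrays, while miR-196a-5p was highest on cesarean replicate 3, where miR-196b-5p and miR-10b-5p were lowest. Of the LPS arrays, replicate 4 was lowest for miR-10a-5p, miR-10b-5p and miR-196a-5p but not for miR-196b-5p. The range over all 8 arrays was 0.83 for miR-196b-5p, 0.86 for miR-10b-5p, 1.06 for miR-10a-5p and 1.92 for miR-196a-5p.

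Of the 4 tested members 1 passed (miR-196a-5p), in a comparison where 4.89% of all 470 tested miRNAs were called, 2.34% of all tested lower and 2.55% higher with LPS. At an unadjusted p of 0.05 the counts were 1 of 4 members and 24.9% of all tested miRNAs. Groups that do not overlap were found for 1 of the 4 members, which was lower with LPS, against 17.0% of all tested miRNAs in either direction and 7.23% lower with LPS. The mean was lower with LPS for 1 of the 4 members and for 54.5% of all tested miRNAs. The median log2 difference of the 4 was 0.07, against -0.06 over all tested miRNAs, and no direction is common to the members.

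The remaining members were not measured above background. The 3p arm of miR-10a had 0 of 225 kept spots well above background over its 4 probes, and its highest scaled probe mean on any array was 5.85. The 3p arm of miR-10b had 0 of 221 such spots, with a highest value of 5.72. For miR-615-3p 1 of 228 spots passed, and the highest value was 7.47. All of these lie under the floor of 13.5 scaled units, so that level is only an upper bound and no fold between the groups can be given. For miR-10 and miR-196 the arms detected were thus the 5p arms. The other arms miR-196a-1-3p, miR-196a-2-3p and miR-196b-3p had no spot above background, and since the first pair are the parts that would tell Mir196a-1 from Mir196a-2, the source gene of miR-196a-5p was not resolved. The arm miR-615-5p had 5 of 228 spots above background, and was above background on cesarean replicate 2 alone.

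Relatives of the miR-10 family outside the Hox clusters were set beside the members. The miRNAs miR-99a-5p, miR-99b-5p and miR-100-5p resemble miR-10 in sequence but carry another seed, as shown by miR-100-5p.
mmu-miR-100-5p: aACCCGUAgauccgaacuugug
Of the 10 related miRNAs listed (the other arms, these relatives, and their cluster neighbours miR-125a-5p, miR-125b-5p and let-7c-5p), 6 were tested and 0 passed limma's adjusted p, against 4.89% of all tested miRNAs. At an unadjusted p of 0.05, 1 of the 6 did, against 24.9%. The log2 differences were -0.14 ± 0.26 for miR-99a-5p, 0.08 ± 0.24 for miR-99b-5p and -0.43 ± 0.27 for miR-100-5p (SE, n = 4 per group). The largest was that of miR-125b-5p, a miRNA of the lin-4 family, at -0.95 ± 0.29 (SE; limma adjusted p = 0.0769). Its cesarean replicates lay at 11.01, 10.74, 10.06 and 10.59 and its LPS replicates at 9.97, 9.46, 9.99 and 9.19, so the groups did not overlap. The median of the 6 was -0.19, against -0.06 over all tested miRNAs.

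**Figure D5:**
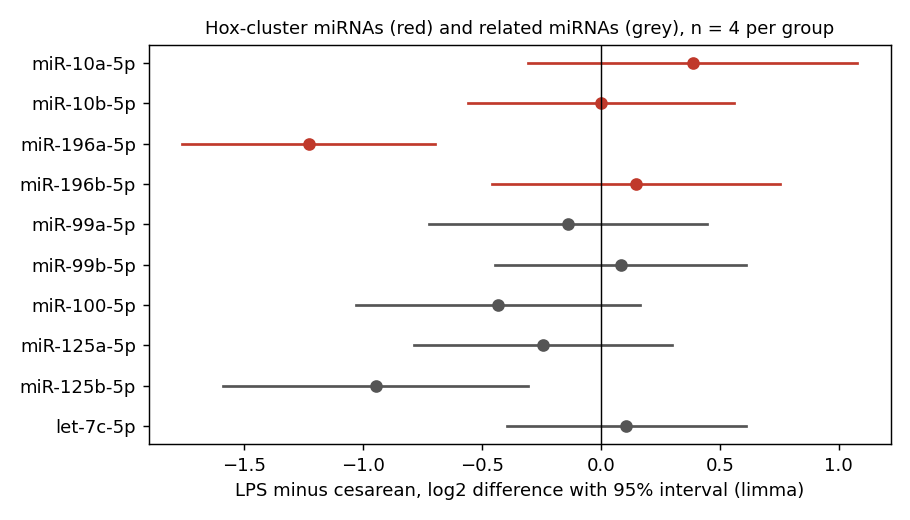
Log2 difference, LPS minus cesarean, with its 95% interval from limma (x axis) for the 4 measured Hox-cluster miRNAs (red) and the 6 measured related miRNAs (grey), n = 4 per group. The interval of miR-196a-5p runs from -1.76 to -0.70, and those of the other 3 members include 0. Among the related miRNAs only that of miR-125b-5p, from -1.59 to -0.31, excludes 0.

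The miRNAs most like miR-196a-5p over the 8 arrays, by Pearson's r and given as a description, were miR-652-5p (r = 0.944), miR-7667-3p (0.924), miR-1931 (0.915), miR-181b-5p (0.911) and miR-7068-5p (0.904). The arrays share their scaling and form 2 groups, and a list chosen for likeness to miR-196a-5p tends to share its group difference. By limma 4 of these 5 were called lower with LPS, against 2.34% of all tested miRNAs. Given the choice, their number is no further result. The log2 difference of miR-7068-5p was -0.50, but it was not called (limma adjusted p = 0.156). Only 1 of the 4 LPS arrays measured miR-7667-3p and miR-7068-5p above background. Most like miR-10b-5p were miR-126a-3p (r = 0.877), an endothelial miRNA, miR-107-3p (0.827), miR-378a-3p (0.815), miR-652-3p (0.813) and miR-29a-3p (0.791), none of which passed limma (adjusted p from 0.874 to 0.983). This list was chosen for likeness to a miRNA without a group difference, so the lack of calls is no further result.

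Some other markers, not all, moved between the same groups. Of all tested miRNAs 2.55% were called higher and 2.34% lower with LPS, and these calls, 23 in all, ran from 0 to 79 under the alternatives. Of 5 epithelial miRNAs of the miR-200 family 3 were called higher with LPS, and the log2 of their summed signal was 10.49 to 11.13 on LPS and 9.50 to 9.94 on cesarean arrays. Sums here and below add only the markers detected on an array and count the others as 0. A sum therefore also depends on which markers were detected on that array. Of 3 kidney and intestine miRNAs 2 were called higher, with sums of 8.06 to 8.68 and 6.43 to 7.22. Of 5 mesenchymal miRNAs 0 were called, with a median difference of -0.98 and sums of 9.81 to 10.64 on LPS and 10.56 to 11.74 on cesarean arrays. These did not share a direction. The log2 difference was -0.98 for miR-199a-3p, -1.03 for miR-199a-5p and -1.34 for miR-214-3p. It was 0.62 for miR-143-3p and 0.71 for miR-145a-5p. Of 2 tested neural miRNAs 1 was called lower. Sums over those of the 4 listed that were detected on an array were 4.07 to 6.51 and 6.81 to 10.42. Of 3 tested erythroid miRNAs 1 was called higher (sums 13.78 to 14.92 and 13.08 to 13.94), as was 1 of 3 leukocyte miRNAs (9.30 to 9.87 and 9.45 to 9.80), while 0 of 3 striated muscle miRNAs were called (6.47 to 10.29 and 7.55 to 8.46). In none of these lists was a marker below background on all arrays, and their part in the fall of miR-196a-5p was not tested.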

How the data were processed

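Exosomes were isolated from amniotic fluid by size-exclusion chromatography and their RNA was labelled with Cy3, per the labels' protocols. The deposited scanner files hold spot intensity on a linear scale, background-subtracted and not normalized between arrays, from Agilent Feature Extraction 10.7.1.1 per the file headers (version 9.1 per the submitters' processing notes). The deposited series-wide values are on a log2 scale and were normalized by the authors. The sources used here do not give the method, and each column correlated best with its own array (r from 0.964 to 0.972 over 470 miRNAs, column medians 2.14 to 2.15).

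Control spots and spots marked as outliers or non-uniform were left out, 2.99% to 3.48% of 56430 miRNA spots per array, and 0 were saturated. A probe was detected where a share of at least 0.5 of its spots was well above background. Arrays were scaled to the 75th percentile of the 618 probes detected on all arrays, raised to a floor of 13.5 (log2 3.75), the median over arrays of the lowest detected signal, and put on the log2 scale. The brightest probe stood for a miRNA. Tested were 470 miRNAs detected on at least 3 of 4 arrays of either group. The number of arrays limits the precision.

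Groups were compared with limma 3.58.1 (R 4.3.3), LPS minus cesarean, two-sided, at a Benjamini-Hochberg adjusted p of 0.05, after the code was tested on simulated data. Differences between members were tested by exact permutation, two-sided, over the 70 possible allocations (scipy 1.17.1, Python 3.11.15). Correlations were ranked with pandas 2.3.3 and numpy 2.4.6, and plots were drawn with matplotlib 3.10.9. Alternatives changed the scaling, the background correction (normexp), the floor, the filter or the summary of probes, used the authors' values, added the slide column as a block, or left out each array. Named were the members, their related miRNAs, the marker lists and the 5 miRNAs most like miR-196a-5p and miR-10b-5p. The members and lists were chosen with earlier results of these data known.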

Additional observations from a re-analysis of the deposited data

Results flagged for a closer look

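The miR-10 pair held both values that stood apart from the other arrays of their group by Dixon's test at the 95% level, which chance passes in about 1 of 20 groups. The 4 tested members and the 3 differences between members were each screened in both groups. These differences reuse the values of the members and are not independent of them. LPS replicate 4 had miR-10b-5p at 8.04, while the other LPS arrays lay between 8.40 and 8.47. Cesarean replicate 1 had a difference of miR-10a-5p minus miR-10b-5p of -1.53, while the other cesarean arrays lay between -1.25 and -1.23.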

How the results depend on the processing

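The differences of miR-196a-5p, miR-196b-5p and miR-10a-5p kept their sign under all 21 alternatives. Changing the filter or blocking slide columns leaves each difference as it was, so those settings could not change a sign. With groups that do not overlap, leaving out 1 array could not reverse miR-196a-5p either. The call of miR-196a-5p passed under 10 of the 21 alternatives, with limma adjusted p from 0.0177 to 0.478. The difference of miR-10b-5p changed sign without scaling (-0.15), with spike-in scaling (-0.14), with normexp at offset 50 (-0.0070) and at offset 1 (-1.3e-04, added after seeing the data), and ranged from -0.091 to 0.19 with 1 array left out. The count of tested members that passed went from 1 to 0 without scaling, with scaling over all probes or to the spike-in probes, with normexp at offset 50, with the scanner software's total, with no filter and with slide columns blocked. It was 0 to 1 with 1 array left out, and 0 without cesarean replicate 1, 2 or 3 or LPS replicate 2. The count over all miRNAs, 23, was 1 without scaling, 36 with quantile normalization, 13 with scaling over all probes, 0 with spike-in scaling (61 at an unadjusted p of 0.05 in limma), 9 with normexp at offset 50, 6 with the software's total, 2 with no filter, 15 with miRNAs detected on all 8 arrays and 1 with slide columns blocked. It was 3 to 79 with 1 array left out, namely 5, 4, 3 and 9 without cesarean replicates 1 to 4, and 79, 4 and 7 without LPS replicates 1 to 3. Without scaling the median of all miRNAs was -0.20, against -0.06. The shift of miR-196a-5p against miR-196b-5p was -0.52 with normexp at offset 50, -1.05 at offset 1 and -0.73 with the software's total, and -1.59 to -1.14 with 1 array left out. Against miR-10b-5p it was -0.40, -0.91 and -0.58, and -1.45 to -1.01. Normexp at offset 50 adds 50 to every spot signal before scaling, while scaled signals of the longest miR-196a-5p probe were 20.0 to 75.5. The causes were not tested, other than that fewer arrays cannot pass the exact test. On LPS arrays 26 of 28 spots of the miR-196a-5p probe were well above background.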

Other observations

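The 2 arms of the X-linked miR-652 hairpin were each the most alike, or among the most alike, to a different member. The 5p arm, most like miR-196a-5p, was 9.56, 8.92, 9.56 and 9.24 on cesarean replicates 1 to 4 and 8.57, 7.82, 8.17 and 7.37 on LPS replicates 1 to 4, a log2 difference of -1.34 ± 0.30 (SE; limma adjusted p = 0.0329). The 3p arm, among the 5 most like miR-10b-5p, was 6.74, 7.28, 6.30 and 6.99 on cesarean and 6.97, 6.94, 7.16 and 6.52 on LPS replicates 1 to 4, a difference of 0.07 ± 0.27 (SE; adjusted p = 0.903). These arms were singled out after their values were seen, and the difference between them was not tested.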
